A study of Mus musculus with 6 samples.

Results

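Cyclic AMP and cyclic GMP are small intracellular messengers that carry the signal of many hormone and transmitter receptors, and the genes that make, break down and read them were examined here in mouse thalamus. The set was taken by symbol: adenylyl cyclases, soluble guanylyl cyclase subunits, phosphodiesterases, subunits of the cAMP-dependent kinase (PKA), cGMP-dependent kinases, A-kinase anchoring proteins, Rap exchange factors, and the CREB and CREM transcription factors. The pattern matched 69 of the 32531 genes in the count files. They divide into 10 adenylyl cyclases, 4 soluble guanylyl cyclase subunits, 24 phosphodiesterases, 4 PKA regulatory and 2 catalytic subunits, 2 cGMP-dependent kinases, 14 anchoring proteins, 5 Rap exchange factors and 4 CREB or CREM genes.

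The tissue was thalamus of untreated adult control mice carrying the Cbln1-EGFP/Rpl10a transgene (line NIDA030). The names of the deposited counts also mention the parafascicular nucleus, a small part of the thalamus, and how much of the thalamus was dissected is not settled by the sources used here. In this line EGFP-tagged ribosomes mark the cells in which the Cbln1 transgene is active, so that their ribosome-bound RNA can be pulled down (translating ribosome affinity purification, TRAP). The series holds 6 libraries from that single genotype: 3 of immunopurified RNA (IP) and 3 labelled Input. The only comparison is IP against Input, and no label says whether replicates came from separate animals, so p-values measure the spread between these libraries, which may be technical.

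As background, adenylyl cyclases answer stimulatory and inhibitory G proteins and, for some isoforms, calcium, while soluble guanylyl cyclase answers nitric oxide. Phosphodiesterase families differ in whether they hydrolyse cAMP, cGMP or both. PKA is a tetramer of regulatory and catalytic subunits that anchoring proteins hold at membranes and organelles, Epac proteins pass cAMP to the small GTPase Rap, and CREB-family factors carry the signal to genes through the cAMP response element. In thalamic relay neurons cAMP is also known for shifting the voltage dependence of HCN pacemaker channels.

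Assigned counts ran from 23929070 in Input replicate 1 to 57385828 in IP replicate 1. Levels are given as CPM, each library's counts divided by its total after scaling by the trimmed mean of M-values (TMM). A gene is called when edgeR's quasi-likelihood F-test gives an adjusted p-value (Benjamini-Hochberg, over all 16898 genes tested) under 0.05, and every adjusted p below is from that test unless another is named. Neuronal markers were higher in IP (7 of 8, summed level 12681 to 13625 CPM in Input and 23381 to 28250 CPM in IP, with 1 lower), and thalamic glutamatergic markers were split (4 of 10 higher and 4 lower). Glial and inhibitory markers were lower. The summed level of 10 oligodendrocyte markers went from 3610 to 4171 CPM in Input to 311 to 394 CPM in IP, that of 10 astrocyte markers from 1645 to 1726 to 677 to 717 CPM, and all 20 were called lower. Microglial markers (6 of 8 lower, 0 higher) went from 40.9 to 49.8 to 4.40 to 7.74 CPM, and GABAergic markers (6 of 7 lower, 0 higher) from 708 to 961 to 136 to 144 CPM. Markers of the habenula, which borders the thalamus, were lower in 6 of 7 and higher in 0, with a summed level of 174 to 284 CPM in Input and 143 to 178 CPM in IP. The uncalled Nwd2 held the largest part of that sum (mean 117 CPM in Input and 122 CPM in IP). The median log2 fold change of the habenular markers was -1.43. Of the endothelial and mural markers 6 of 10 were lower and 1 was higher (27.8 to 34.1 CPM in Input, 9.81 to 12.6 CPM in IP), with Cldn5 at 0 counts in every IP library. Cldn5, Ly6c1 and Slco1a4 passed the filter on low counts through the Input libraries alone. Their lower calls were thus built into that filter. Choroid plexus and ependymal markers set Input replicate 1 apart (24.1 CPM against up to 587 CPM in the other Input libraries). Their summed level was also lowest in IP replicate 1 (5.54 CPM against up to 49.3 CPM in the other IP libraries). The part of these other cell types in each result below was not tested, and in whole-tissue Input fewer cells of a type and less RNA per cell cannot be told apart.

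Of the 69 members, 63 passed the filter on low counts. The other 6 held few or no reads, with highest counts in any library of 48 (Adcy4), 21 (Pde6h), 17 (Gucy1b2), 15 (Pde4c), 5 (Pde6a) and 0 (Akap4). Adcy10, the bicarbonate-regulated cyclase, passed through the Input libraries alone, so its difference was built into the filter.

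Cyclic nucleotide genes changed in both directions. Of the 63 tested, 16 (25.4%) were called higher in IP and 17 (27.0%) lower, beside 23.3% higher and 24.3% lower among all genes tested, 47.5% in either direction. The groups' values were fully separate for 41 members (65.1%), beside 61.6% of all genes. The members' median log2 fold change was -0.10, and that of all genes -0.07. These shares lie near the background as counted here. Of all genes tested, however, 1211 passed the filter through Input alone and 17 through IP alone, against 1 and 0 of the members. The all-gene shares of lower and separate genes may thus hold more falls built into the filter. The 2 sets were not compared without such genes. At least 2-fold called changes were 5 up and 11 down, 7.94% and 17.5% of the members, against 6.57% and 18.4% of all genes. Adcy10 stands among the 17 lower, the 11 down and the 41 separate members, although its fall was built into the filter. Upper-quartile scaling called 13 higher and 22 lower, and library totals alone 9 higher and 23 lower. Higher genes thus made up 48.5%, 37.1% and 28.1% of the members' calls under the 3 scalings, beside 48.9%, 36.7% and 31.9% of the calls over all genes. The median of all genes went from -0.07 to -0.25 and -0.31. No called member turned its direction under any of 17 alternatives, and 19 of 33 (9 higher and 10 lower) kept their call under each alternative that tested them.

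**Figure D1:**
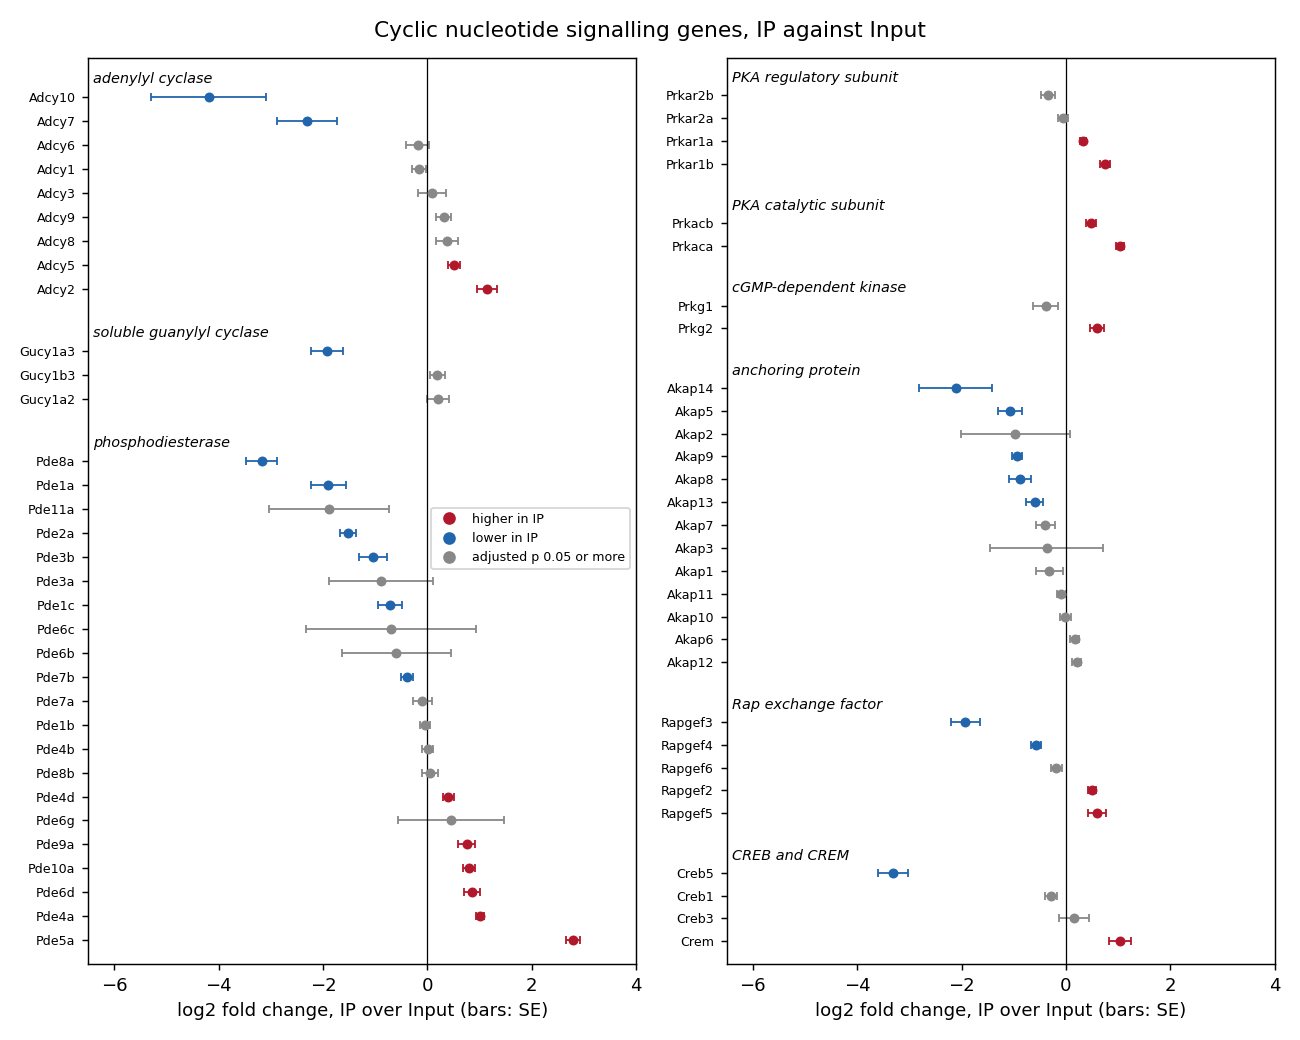
Log2 fold change of IP over Input for the 63 tested members, ordered by role; points are edgeR estimates, bars their standard errors, and colours the call at an adjusted p under 0.05. Pde5a stands at 2.78 and Adcy10, Creb5 and Pde8a below -3, while both PKA catalytic subunits lie to the right of 0 and no anchoring protein was called higher. The fall of Adcy10 was built into the filter, which it passed through Input alone.

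The best-known DNA element of this pathway is the cAMP response element, whose full form is TGACGTCA, the same on both strands, with the core TGACG. Promoter windows of RefSeq (build GRCm38.p6, 250 bases before to 50 after each start site) were found for 57 members. The full element occurred in 2 of them (3.51%, against 2.03% of 27025 genes with a window), Creb5 and Prkar1a. The core, counted on both strands and including its copies inside the full element, occurred in 21 (36.8%, against 23.0%). A gene counted when any of its windows held a match, so genes with more start sites had more chances. The number of windows per gene was not compared between members and all genes. By call, the core was in windows of 5 of 13 higher, 6 of 16 lower and 9 of 23 uncalled members. A match is a description of letters, not a site in use. The stretches below come from the 2 members with the full element and, among called members with only the core, from the one that rose most (Prkaca) and the one that fell most (Pde8a). They are shown 5′ to 3′ with matches in capitals, and bases of annotated exons were trimmed except in the short Prkar1a window, which lies after another RefSeq start site of that gene.
Creb5, chr6:53287053-53287269, plus strand, full element 45 bases before the start site: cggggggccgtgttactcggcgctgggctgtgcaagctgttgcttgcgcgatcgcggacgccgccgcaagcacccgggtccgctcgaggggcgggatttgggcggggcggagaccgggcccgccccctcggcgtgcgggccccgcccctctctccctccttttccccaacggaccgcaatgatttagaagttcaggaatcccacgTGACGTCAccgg
Prkar1a, chr11:109650889-109650918, plus strand, full element 49 bases before the start site: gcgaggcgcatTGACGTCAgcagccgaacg
Prkaca, chr8:83972728-83972977, plus strand, core on the opposite strand 120 and 6 bases before the start site: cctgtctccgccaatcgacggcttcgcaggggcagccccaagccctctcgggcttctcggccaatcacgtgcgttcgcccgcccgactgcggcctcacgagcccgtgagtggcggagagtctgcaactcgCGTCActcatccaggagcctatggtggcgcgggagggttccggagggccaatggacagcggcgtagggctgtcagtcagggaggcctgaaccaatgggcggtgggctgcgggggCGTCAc
Pde8a, chr7:81213015-81213264, plus strand, core 84 bases before the start site: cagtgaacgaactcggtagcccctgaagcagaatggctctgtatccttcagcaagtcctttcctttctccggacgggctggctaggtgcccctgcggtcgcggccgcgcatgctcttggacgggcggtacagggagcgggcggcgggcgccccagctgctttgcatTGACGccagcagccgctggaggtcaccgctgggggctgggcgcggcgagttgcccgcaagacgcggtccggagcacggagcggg
Of these 4 genes, Prkar1a and Prkaca were higher in IP and Creb5 and Pde8a lower.

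Among the adenylyl cyclases, which make cAMP, 2 of 9 tested members rose and 2 fell, Adcy10 among them with a fall built into the filter. Adcy2, an isoform that G-protein beta-gamma subunits stimulate, measured 23.6, 14.6 and 20.7 CPM in the Input libraries, numbers 1 to 3, against 37.1, 49.2 and 42.9 CPM in the IP libraries. Every IP library lay above every Input library, a 2.20-fold rise (log2 fold change 1.14, SE 0.19, adjusted p = 0.00124). Adcy5, the main cyclase of the striatum, had 54.7, 55.7 and 61.6 CPM in Input and 70.5, 80.6 and 93.6 CPM in IP (1.42-fold, adjusted p = 0.00767), again without overlap. Adcy7, an isoform common in immune cells, fell 4.95-fold from 6.19, 5.68 and 6.39 CPM in Input to 1.58, 1.79 and 0.306 CPM in IP (log2 fold change -2.31, SE 0.58, adjusted p = 0.00911). IP replicate 3 was the lowest of the 6. Most listed markers of glia, microglia, vessels and GABAergic neurons were lower too. The part of these cell types in the fall of Adcy7 was not tested. Adcy10 gave 12, 17 and 29 reads in Input against 1, 0 and 2 reads in IP, a ratio of 20.6 (exact 95% interval 6.71 to 103, for counting error only). Adcy4 gave 13, 1 and 48 reads in Input and 0 in all IP libraries, which makes it at least 22.0-fold lower against a floor of 3 counts over the group. Most of those reads were in Input replicate 3, and the bound was 8.33-fold without that library and 36.2-fold without Input replicate 2.

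The cyclase of highest CPM, the calcium-stimulated Adcy1, was not called: it had 296, 417 and 331 CPM in Input and 269, 335 and 326 CPM in IP (log2 fold change -0.17, SE 0.13, adjusted p = 0.338). The groups overlapped, and Input replicate 2 was the highest library. Per kilobase of exon Adcy1 still led the cyclases, with 24.8 ± 2.85 CPM per kb in IP and 27.8 ± 4.93 CPM per kb in Input (SD, n = 3 each). Adcy5 (11.4 ± 1.61 CPM per kb in IP), Adcy9 (10.99 ± 1.998) and Adcy2 (10.2 ± 1.44) followed in IP and did not differ beyond their spread. The share of Adcy1 in the summed cyclase level was 43.1, 54.4 and 45.1% in Input and 35.3, 37.6 and 39.0% in IP, 10.2 percentage points lower, while that of Adcy2 went from 8.09 ± 2.27% to 15.4 ± 0.987%. Adcy8, also stimulated by calcium (log2 fold change 0.37, adjusted p = 0.183), and Adcy9 (0.31, adjusted p = 0.0926) missed the threshold, as did Adcy3 and Adcy6. Adcy5 was no longer called with library totals (adjusted p = 0.145) or without replicate number 2 or 3 (0.0504 and 0.0509), Adcy10 without Input replicate 3 (0.0597) or replicate number 1 (0.0532). Adcy8 was called without IP replicate 3 (0.0380) and Adcy9 without IP replicate 1 or 3 (0.0409 and 0.0454).

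**Figure D2:**
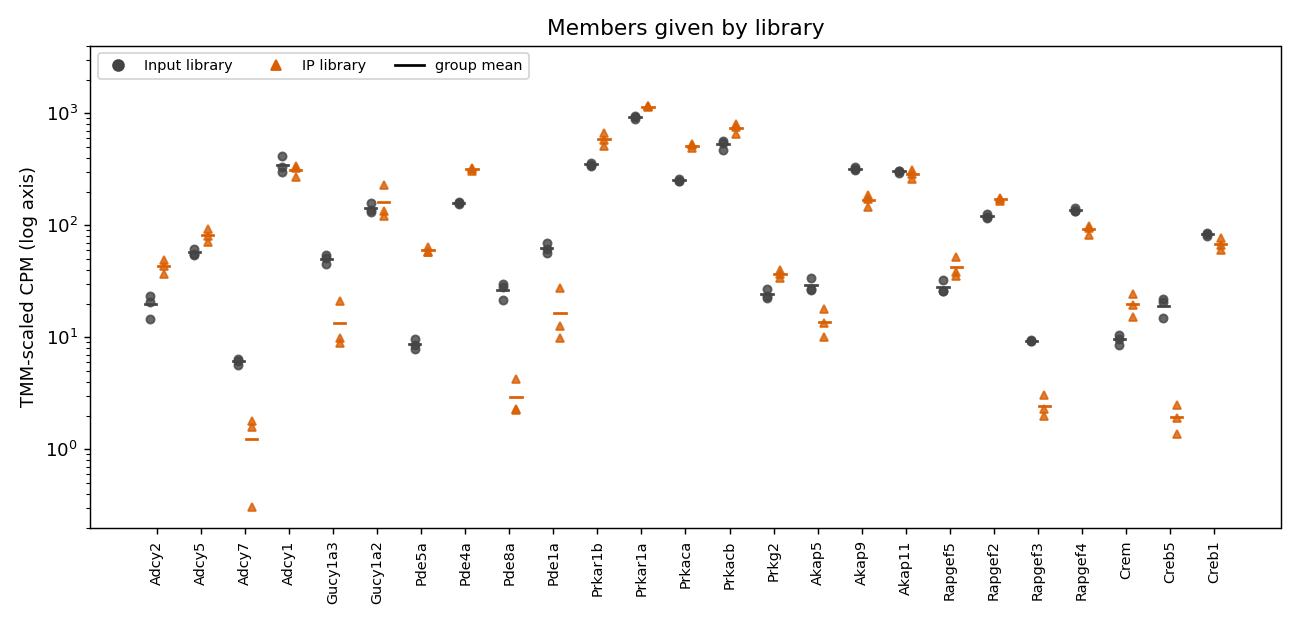
TMM-scaled CPM in each library, on a log axis, for the members chosen by rule in each role group; circles are Input, triangles IP, and short lines group means. Pde5a, Pde4a and Prkaca show separate groups with little spread, whereas Gucy1a2 and Pde1a have an IP replicate 1 above the other 2 IP libraries.

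Soluble guanylyl cyclase is a dimer of an alpha and a beta subunit. Of its genes only Gucy1a3 was called among the 3 tested. Gucy1a3 (Gucy1a1 in the annotation, chromosome 3, 82092427 to 82145789, mm10) fell from 51.2, 45.5 and 54.8 CPM in Input to 21.2, 9.83 and 8.87 CPM in IP, a 3.79-fold decrease (log2 fold change -1.92, SE 0.30, adjusted p = 8.19e-04). The other alpha gene, Gucy1a2, had 157, 136 and 132 CPM in Input and 228, 122 and 135 CPM in IP and was not called (log2 fold change 0.19, SE 0.21, adjusted p = 0.478). IP replicate 1 was the highest IP library for both. The beta gene Gucy1b3 was not called either (53.5 ± 0.948 CPM in Input, 61.1 ± 12.3 CPM in IP, SD, n = 3 each, adjusted p = 0.299). Per kilobase of exon, Gucy1a2 stood at 24.3 ± 8.73 CPM per kb in IP, Gucy1b3 at 15.6 ± 3.12 and Gucy1a3 at 1.91 ± 0.982, where Input gave 21.3 ± 2.01, 13.6 ± 0.241 and 7.25 ± 0.671.

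Phosphodiesterases, which end the signal, covered the widest range: 6 of 21 tested genes rose and 6 fell. Pde5a, a cGMP-specific enzyme and the target of sildenafil, showed the largest rise of all members. It lies on chromosome 3 at 122728947 to 122859374 (mm10). Its level was 7.83, 8.49 and 9.66 CPM in Input and 64.2, 57.2 and 58.2 CPM in IP. The lowest IP library lay far above the highest Input library, a 6.89-fold rise (log2 fold change 2.78, SE 0.14, adjusted p = 1.32e-06). Among the 13906 genes that average 1 CPM or more its fold change ranked 50 from the top. Even so, its level in IP (6.09 ± 0.385 CPM per kb) remained below those of several other phosphodiesterases.

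Pde4a, a cAMP-specific enzyme of the family that rolipram inhibits, also rose. It had 157, 160.4 and 154 CPM in Input and 322, 317 and 308 CPM in IP, without overlap and with little spread in either group (2.01-fold, log2 fold change 1.01, SE 0.07, adjusted p = 1.02e-05). In the same family Pde4d rose 1.32-fold (adjusted p = 0.0129) and Pde4b stayed uncalled (109 ± 2.54 CPM in Input, 109.8 ± 13.8 CPM in IP, adjusted p = 0.969). Pde10a, a dual enzyme best known from the striatum, rose 1.74-fold from 72.3, 93.3 and 90.7 CPM to 139, 159 and 149 CPM (adjusted p = 4.97e-04). Of 7 striatal markers tested 5 were lower and 0 higher. The summed level of the list was 93.8 to 99.97 CPM in Input and 47.2 to 50.5 CPM in IP, none being at 0 in every IP library. Drd1 passed the filter through the Input libraries alone, so its fall was built into the filter. Any part of striatal RNA in the rise of Pde10a was not tested. Pde9a, a cGMP enzyme of high affinity, rose 1.68-fold (11.7 ± 0.489 to 19.7 ± 2.40 CPM, adjusted p = 0.00482). Pde6d rose 1.81-fold (38.8 ± 3.13 to 70.3 ± 14.6 CPM, adjusted p = 0.00166), and its product is a carrier of prenylated proteins rather than an enzyme.

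Pde8a, a high-affinity cAMP enzyme, fell most among the phosphodiesterases. It had 29.7, 21.4 and 28.3 CPM in Input and 2.28, 2.22 and 4.28 CPM in IP, 9.05-fold lower (log2 fold change -3.18, SE 0.29, adjusted p = 3.76e-05). Its close relative Pde8b was not called, at 46.3 ± 9.23 CPM in Input and 47.6 ± 5.10 CPM in IP (adjusted p = 0.844). Family 1, which calcium and calmodulin stimulate, also held both called and uncalled genes. Pde1a fell 3.73-fold from 61.2, 56.1 and 69.0 CPM to 27.4, 9.81 and 12.7 CPM (log2 fold change -1.90, SE 0.33, adjusted p = 0.00144). IP replicate 1 was the highest of the 3 IP libraries but still under every Input library. Pde1b, by contrast, stood at 91.5 ± 2.35 CPM in Input and 88.7 ± 9.04 CPM in IP (adjusted p = 0.740), and Pde1c fell 1.65-fold (adjusted p = 0.0271). Pde2a, which cGMP stimulates, fell 2.86-fold (48.9 ± 8.50 to 17.1 ± 1.14 CPM, adjusted p = 6.46e-05), although 64.3% of its exonic bases are shared with the overlapping gene model Gm45837. Pde3b fell 2.06-fold (adjusted p = 0.0124) and Pde7b 1.32-fold (adjusted p = 0.0226). Most of the listed markers of astrocytes, oligodendrocytes, microglia, vessels, GABAergic neurons and the habenula fell in the same comparison.

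Grouped by substrate, 3 of 6 tested genes of the cGMP-specific families 5, 6 and 9 rose and 0 fell (Pde5a, Pde9a and the non-enzyme Pde6d). Of 7 tested genes of the cAMP-specific families 4, 7 and 8, 2 rose and 2 fell, and of 8 dual-specificity genes (families 1, 2, 3, 10 and 11) 1 rose and 4 fell. Among all genes tested 23.3% rose and 24.3% fell. Medians were 0.60, 0.01 and -0.97 on the log2 scale, and the difference between these small groups was not tested. The first median includes Pde6d and the scarce Pde6b and Pde6c (0.51 and 0.41 CPM on average over all libraries). The photoreceptor genes Pde6b, Pde6c and Pde6g and the genes Pde3a, Pde11a and Pde7a were not called. Pde3a had 4.90, 2.23 and 3.14 CPM in Input and 4.802, 0.545 and 0.141 CPM in IP, and without IP replicate 1 it was called lower (log2 fold change -3.28, adjusted p = 0.00438), as it was without replicate number 1 (-2.95, adjusted p = 0.0329). Pde6c was called lower without IP replicate 3 or replicate number 3 (adjusted p = 0.0181 and 0.0211). IP replicates 1 and 2 held 0 reads of Pde6c, so in both cases it passed the filter through Input alone. The fall was thus built into the filter. Of the weaker calls 4 ended under some alternatives, each in the same direction as before. Pde4d was not called without replicate number 3 (log2 fold change 0.44, adjusted p = 0.0813) or under upper-quartile scaling or library totals (0.22 and 0.15, adjusted p = 0.132 and 0.204). Pde1c lost it without any 1 Input library, IP replicate 2, or replicate number 1 or 2 (log2 fold changes -0.78 to -0.58, adjusted p from 0.0590 to 0.146). Pde3b lost it without Input replicate 1 or 2 or any replicate number (-1.10 to -0.97, adjusted p from 0.0517 to 0.0717), and Pde7b without Input replicate 2, IP replicate 3, or replicate number 2 or 3 (-0.37 to -0.27, adjusted p from 0.0767 to 0.145).

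The make-up of the family shifted with these changes. Per kilobase of exon, Pde4a held 15.1, 15.3 and 14.3% of the summed phosphodiesterase level in Input and 23.0, 25.8 and 24.9% in IP, a gain of 9.66 percentage points. Pde6d went from 12.9 ± 0.815% to 19.1 ± 2.44%, Pde5a from 0.639 ± 0.0565% to 3.62 ± 0.0513%, Pde1a from 7.50 ± 0.688% to 1.61 ± 0.782% and Pde8a from 4.76 ± 0.817% to 0.436 ± 0.192% (SD, n = 3 each). These shares do not depend on how libraries are scaled.

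**Figure D3:**
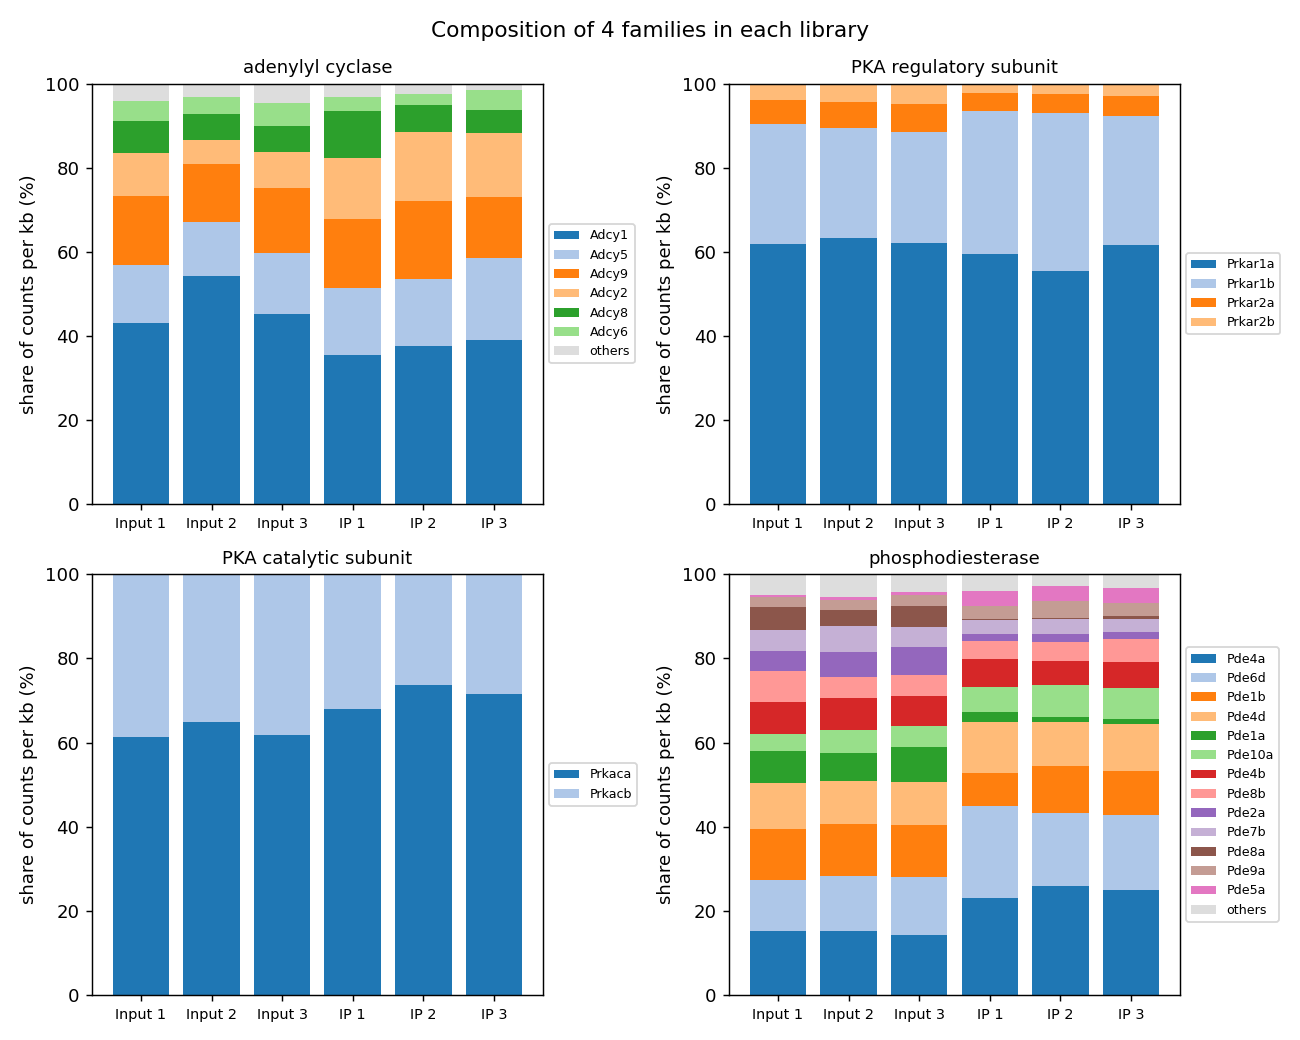
Share of each gene in the summed counts per kilobase of exon of its family, for 4 families in each of the 6 libraries; members under 3% in every library are drawn as others. Adcy1 takes less and Adcy2 more of the cyclase bar in IP, Pde4a rises from about 14.9 to 24.6% on average, and Prkaca takes 68.0 to 73.6% of the catalytic subunits in IP.

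Per kilobase of exon 4 PKA genes (Prkar1a, Prkaca, Prkar1b and Prkacb) had the highest levels of all members in both groups, and all 4 rose. Both catalytic genes were higher. Prkaca had 257, 249.5 and 249 CPM in Input and 489, 521 and 535 CPM in IP, groups far apart relative to their spread (2.04-fold, log2 fold change 1.03, SE 0.07, adjusted p = 8.94e-06). Prkacb went from 571, 474 and 541 CPM to 810.1, 658 and 749 CPM (1.40-fold, adjusted p = 0.00372). Per kilobase of exon Prkaca was above Prkacb in Input (101 ± 1.92 and 60.3 ± 5.66 CPM per kb) and further above it in IP (207 ± 9.50 and 84.3 ± 8.71 CPM per kb). This order, and the shares that follow, rest on the exon lengths used (2488 and 8772 bases), since by CPM Prkacb was the higher in both groups. The share of Prkaca was 61.4, 65.0 and 61.8% in Input and 68.0, 73.6 and 71.6% in IP, a gain of 8.34 percentage points. The annotation also holds a pseudogene copy, Prkaca-ps1, so the way the counting split reads between them is uncertain.

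Of the 4 regulatory genes 2 rose and 0 fell. Prkar1a and Prkar1b encode the type I subunits, which are mostly soluble, and Prkar2a and Prkar2b the type II subunits, which anchoring proteins bind tightly. Prkar1b, a form found mainly in neurons, rose 1.68-fold from 361, 342 and 347 CPM to 583, 672 and 511 CPM (log2 fold change 0.75, SE 0.10, adjusted p = 3.42e-04). Prkar1a rose 1.25-fold from 888, 942 and 926 CPM to 1160.4, 1129.6 and 1161 CPM (log2 fold change 0.32, SE 0.06, adjusted p = 0.00299). In both, every IP library lay above every Input library. Prkar2a (135 ± 12.3 CPM in Input, 130.2 ± 7.43 CPM in IP, adjusted p = 0.660) was not called. Prkar2b stood at 54.3 ± 7.09 CPM in Input and 42.8 ± 5.66 CPM in IP (log2 fold change -0.34, adjusted p = 0.0711).

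Per kilobase of exon the order in IP was Prkar1a (266 ± 4.13 CPM per kb), Prkar1b (155 ± 21.2), Prkar2a (20.4 ± 1.17) and Prkar2b (11.7 ± 1.55), each apart from the next by more than the SDs, and the order in Input was the same. Prkar1a held 61.8, 63.3 and 62.1% of the regulatory level in Input and 59.5, 55.5 and 61.5% in IP, 3.58 percentage points lower, and Prkar1b rose from 27.0 ± 1.34% to 34.0 ± 3.36%. For the leading genes of the 4 families (Adcy1, Prkar1a, Prkaca and Pde4a) the exact two-sided permutation p of the difference in share was 0.1 each, the lowest that 3 against 3 libraries can give, and also 0.1 after adjustment over the 4. The rise of Prkar1a lost its call under upper-quartile scaling and library totals (adjusted p = 0.0928 and 0.356) and without replicate number 3 (0.0578). Prkacb was no longer called with library totals (0.0529) or without replicate number 3 (0.0527), whereas Prkar2b was called lower without IP replicate 3 (0.0381) and under upper-quartile scaling, library totals, DESeq2, limma-voom and the stricter filter (0.0129 to 0.0415).

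Of the cGMP-dependent kinases, Prkg2, a membrane-anchored form, rose and Prkg1 was not called. Prkg2 had 22.4, 27.0 and 23.2 CPM in Input and 39.8, 37.0 and 33.6 CPM in IP (1.52-fold, log2 fold change 0.60, SE 0.14, adjusted p = 0.00534), with no overlap, though not under library totals (adjusted p = 0.0544). Prkg1 had 27.7, 26.8 and 19.6 CPM in Input and 26.3, 14.7 and 15.5 CPM in IP (log2 fold change -0.39, adjusted p = 0.221), IP replicate 1 lying among the Input libraries. Without IP replicate 1 it was called lower (-0.70, adjusted p = 0.0110), as it was under library totals (adjusted p = 0.0437).

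Of 13 tested anchoring protein genes 0 rose and 5 (38.5%) fell, beside 23.3% higher and 24.3% lower among all genes, and their median log2 fold change was -0.39. Akap9, a large scaffold of the centrosome and Golgi, fell 1.91-fold from 328, 313 and 321 CPM in Input to 186, 147 and 170.4 CPM in IP (log2 fold change -0.93, SE 0.10, adjusted p = 7.73e-05). Akap5, which places PKA at the postsynaptic membrane, fell 2.10-fold from 33.8, 26.9 and 26.5 CPM to 13.3, 9.98 and 18.05 CPM (log2 fold change -1.07, SE 0.22, adjusted p = 0.00364). Both genes had separate groups. The nuclear protein Akap8 fell 1.84-fold (67.8 ± 9.07 to 36.9 ± 11.4 CPM, adjusted p = 0.00638), Akap13 1.52-fold (adjusted p = 0.0111), and Akap14, a protein of sperm and cilia at 1.55 ± 0.344 CPM in Input, 4.33-fold (adjusted p = 0.0316).

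Akap11 and Akap6, the anchoring genes of highest CPM in IP, were not called. Akap11 had 295, 308 and 308 CPM in Input and 284, 257 and 314 CPM in IP (log2 fold change -0.09, SE 0.09, adjusted p = 0.430). It was called lower under upper-quartile scaling and library totals (adjusted p = 0.0355 and 0.0197). Akap6 (log2 fold change 0.17, adjusted p = 0.119) and Akap12 (0.21, adjusted p = 0.0852) had every IP value above every Input value but missed the threshold, and Akap6 passed it without IP replicate 2 (0.0367). Akap10, at 41.8 ± 1.34 CPM in Input and 41.6 ± 1.77 CPM in IP, showed the smallest difference of the group. Akap7 (-0.39, adjusted p = 0.114) was called lower without IP replicate 1 (0.0150) and under both other scalings. The call of Akap8 ended without replicate number 3 (adjusted p = 0.0936), that of Akap13 without Input replicate 2 or replicate number 3 (0.0524 and 0.129) and that of Akap14 without any 1 Input library or any replicate number (0.0585 to 0.145). Akap1, Akap2 and Akap3 were not called either, and 84.4% of the exonic bases of Akap2 are shared with the gene model Pakap.

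Rap exchange factors were called in 4 of 5 genes, 2 in each direction, beside 47.5% of all genes tested. The Epac genes, whose products cAMP activates directly, both fell. Rapgef3 (Epac1), the form more common outside neurons, fell 3.80-fold from 9.44, 9.32 and 9.30 CPM to 3.06, 2.31 and 2.0 CPM (log2 fold change -1.93, SE 0.27, adjusted p = 4.24e-04). Rapgef4 (Epac2), the main form of the brain, fell 1.49-fold from 135, 144 and 134 CPM to 95.5, 82.6 and 99.6 CPM (log2 fold change -0.57, SE 0.10, adjusted p = 0.00130). The genes that rose were Rapgef2, from 118, 115 and 127 CPM to 164, 170.1 and 176 CPM (1.41-fold, adjusted p = 0.00116), and Rapgef5, from 32.4, 25.8 and 25.6 CPM to 35.4, 38.6 and 52.2 CPM (1.51-fold, adjusted p = 0.0193). All 5 genes, Rapgef6 included (log2 fold change -0.18, adjusted p = 0.154), had groups that did not overlap, as did 61.6% of all genes tested. Antisense transcripts cover 9.26% of the exonic bases of Rapgef3 and 5.05% of those of Rapgef4, and with the strand setting of the counting not given their reads cannot be told apart. The same limit holds for other members. Overlap with opposite-strand genes was highest for Adcy3 (22.1%) and Creb3 (20.8%), and it was 8.34% for Pde9a and 8.01% for Crem. On the same strand, Gm15672 shares 8.95% of the exonic bases of Prkar1b. Rapgef5 was not called without Input replicate 2 or 3, IP replicate 3, or replicate number 2 or 3, nor under either other scaling (adjusted p between 0.0512 and 0.191). Its log2 fold change was 0.36 without replicate number 3. Rapgef2 missed the threshold under library totals (adjusted p = 0.0522), and Rapgef6 was called lower under both other scalings (0.0155 and 0.00737).

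At the level of transcription factors, Crem rose and Creb5 fell. Crem, whose short products can repress cAMP-responsive genes, had 8.62, 10.5 and 9.66 CPM in Input and 24.5, 19.6 and 15.1 CPM in IP (2.05-fold, log2 fold change 1.04, SE 0.21, adjusted p = 0.00325). Creb5 (chromosome 6, 53287270 to 53700376, mm10), whose start region with the full element is printed above, fell 9.94-fold from 21.9, 20.7 and 14.98 CPM to 1.38, 2.51 and 1.91 CPM (log2 fold change -3.31, SE 0.28, adjusted p = 2.61e-05). Its highest IP library lay far below its lowest Input library. Creb1, the factor after which the family is named, had 83.5, 80.4 and 85.5 CPM in Input and 60.7, 67.3 and 76.5 CPM in IP. All its IP values were lower, but it fell just short of the threshold (log2 fold change -0.29, SE 0.11, adjusted p = 0.0531) and was called lower without IP replicate 3 (0.0215) and under upper-quartile scaling, library totals, DESeq2, limma-voom and the stricter filter (0.00631 to 0.0399). Creb3, held in the membrane of the endoplasmic reticulum, was not called (log2 fold change 0.15, adjusted p = 0.696), though it was higher without IP replicate 1 (0.46, adjusted p = 0.0310). By count Creb1 was the highest of the 4, while per kilobase of exon Creb3 (7.25 ± 2.996 CPM per kb in IP) and Creb1 (4.96 ± 0.580) did not differ beyond their spread.

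Members varied more between IP libraries than between Input libraries: the median SD of log2(CPM + 1) was 0.20 in IP and 0.13 in Input, against 0.23 and 0.12 over all genes tested. Among the 3 IP libraries, replicate 1 was the farthest from the others in 39.7% of members, replicate 2 in 23.8% and replicate 3 in 36.5%, against 39.0, 33.3 and 27.8% of all genes. Exon length bore a weak relation to the change, as a description across genes that share these libraries (Spearman correlation -0.15 over 63 members and -0.11 over 15263 genes). On log2 length the Pearson correlation was -0.11 over the members and 0.02 over all genes, so over all genes the sign differed between the measures.

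**Figure D4:**
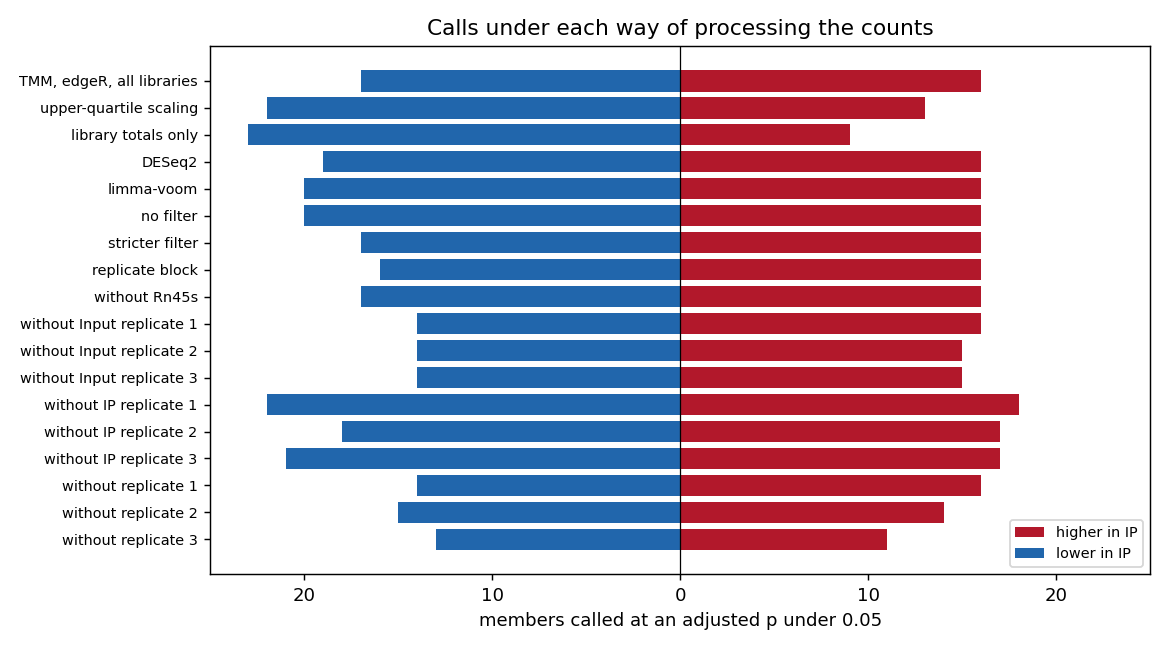
Number of members called higher (right) and lower (left) in IP at an adjusted p under 0.05, for the processing used here and for each of 17 alternatives. The bars stay close to 16 and 17 for most, and the split tips toward lower calls under upper-quartile scaling (13 and 22) and library totals (9 and 23). Calls over all genes, not drawn, tipped the same way (2887 higher and 4981 lower, and 2458 and 5240).

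Partners of the pathway outside the pattern were read from a list of 69 genes, of which 68 were in the files and 63 were tested. Of these, 10 (15.9%) were higher in IP and 16 (25.4%) lower, beside 23.3% and 24.3% of all genes tested. The list's median log2 fold change was -0.19, and that of all genes -0.07. G proteins that act on cyclases held 5 of the 10. Their group of 8 tested genes included Ric8b, which is not a G protein. It was the only gene of the group called lower (log2 fold change -0.48, adjusted p = 0.00235). The largest rises of the list were Gnal, which encodes a stimulatory alpha subunit coupled to cyclase, from 710.1, 777 and 751 CPM to 2335, 1958 and 2000.3 CPM (log2 fold change 1.49, SE 0.09, adjusted p = 3.19e-06), and Gnas, the general stimulatory alpha subunit, from 1742, 1724 and 1798 CPM to 4112, 3737 and 3862 CPM (1.15, SE 0.07, adjusted p = 3.15e-06). In both, all IP libraries were far above all Input libraries. Of 12 tested CREB partners 0 rose and 5 fell, and of 12 genes of nitric oxide and natriuretic peptide signalling 1 rose and 4 fell. Among 12 cyclic nucleotide-gated and related channel genes, 1 rose and 1 fell. Of 8 PKA inhibitors and targets 2 rose and 2 fell, and of 11 other anchoring and Rap genes 1 rose and 3 fell. The largest called falls of the list were in Cngb3 and Gucy2f, the 2 genes of it that passed the filter through the Input libraries alone, so a fall was built into the filter and both stand among the 16. Cngb3, a channel subunit, gave 10, 13 and 11 reads in Input and 0 in every IP library, at least 12.1-fold lower against a floor of 3 counts over the group. Gucy2f, a retinal guanylyl cyclase, gave 25, 107 and 68 reads in Input against 1, 2 and 0 reads in IP (ratio 71.1, exact 95% interval 24.0 to 348).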

How the data were processed

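Raw read counts per gene for 6 libraries (3 IP, 3 Input) were deposited, 1 file each. STAR 2.0.0e was the aligner, mm10 the genome and HTSeq the counter, per the submitters' processing notes; HTSeq's version, strand setting and annotation are not given in the sources used here. Closing lines without a gene (53.2 to 59.8% of a library's total) were left out. The tests used edgeR 4.0.16 under R 4.3.3: filterByExpr (minimum count 10), TMM scaling and the robust quasi-likelihood F-test on all genes, with Benjamini-Hochberg adjustment and a threshold of 0.05. The fit was tested on simulated data. SEs were derived from F statistics. DESeq2 1.42.0 and limma 3.58.1 (voom) served as alternatives. Exon lengths and positions came from GENCODE M21 (mm10), which held all 69 members, 2 under a newer symbol. Each length is that of all exons of a gene, merged over its transcripts. Members given by library are, in each role group, the 2 highest and 2 lowest called changes among genes averaging 1 CPM or more and the member of highest CPM; Pde10a, Pde3a, Prkg1 and the genes with few counts were added after their values were seen. Of the partner list, the 2 largest called changes in each direction are named. The members, the gene lists and the rule were chosen with earlier results of these data known. Counts of each replicate pair differed beyond sampling noise (chi-square per degree of freedom 12.3 to 141). Intervals cover counting error only.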

Additional observations from a re-analysis of the deposited data

How the results depend on the processing

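Library scaling had the largest effect. Under library totals 9 members and 2458 genes in all were called higher, and the members' median log2 fold change was -0.34; it was -0.27 under upper-quartile scaling and -0.18 with limma-voom. Leaving out 1 library or 1 replicate number gave 11 to 18 members higher and 13 to 22 lower, 2659 to 4392 genes higher and 3017 to 5066 lower in all, and members' medians from -0.19 to -0.066. Of 33 called members 14 lost the call under at least 1 alternative, 13 others gained one, and none reversed. Same-numbered IP and Input libraries deviated together only weakly (correlations 0.11, 0.04 and 0.03), and not every library correlated best with its own number. The summed choroid plexus and ependymal markers, however, were lowest in replicate 1 of both groups. Whether the number pairs the libraries is therefore not settled, and the main test did not use it. With the replicate number as a block 16 members were higher and 16 lower (3793 and 4038 of all genes): Adcy10 and Akap14 were no longer called (adjusted p = 0.0547 and 0.0930) and Prkar2b was (0.0406). The shares of Adcy1, Prkar1a, Prkaca and Pde4a differed by the same -10.2, -3.58, 8.34 and 9.66 percentage points, with an exact sign-flip permutation p of 0.25, the smallest that 3 numbers allow. Genes with few counts, such as Pde6c, Akap3 and Adcy10, have wide errors at this depth.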
